A study of Homo sapiens with 2 samples.

Results

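The genes described here build or mark the mitotic chromosome: CENPA, CENPF, CENPH, NDC80, NUF2, CASC5, SGOL2, TOP2A and MKI67. They were chosen by name, with their lower level in ebastine-treated cells already known, and all 9 were among the 1947 genes of the authors' deposited table. That table compares 1 library from ebastine-treated cells with 1 library from vehicle-treated cells. Both cultures were C4-2, a prostate cancer line of human origin that was established from LNCaP, at passage 10 to 15, and polyadenylated RNA was sequenced. Ebastine is an antihistamine that blocks the histamine H1 receptor, and the series title names the Polycomb methyltransferase EZH2 as its target. Not given in the sources used here were dose and length of exposure. With 1 library in each group there is no spread between replicates, so each difference below is between these libraries, with no error and no test.

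The kinetochore is the protein structure that joins each chromosome to the spindle in mitosis. It is built on centromeric chromatin, where the histone H3 variant CENP-A replaces ordinary H3, and its layers run from an inner network bound to that chromatin to an outer network that holds microtubule ends. Many kinetochore genes, and also MKI67 and TOP2A, are transcribed late in the cell cycle and are quiet in resting cells. MKI67 and TOP2A serve as proliferation markers in tumours. In RNA from a whole culture, fewer cells in G2 and mitosis and less RNA in each such cell cannot be told apart.

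Promoter windows of 5 of the genes are shown because the 9 genes were lower together and promoters of late cell cycle genes are known for shared short elements. The sequences are RefSeq's on GRCh38.p14, 5′ to 3′ on the gene's strand, from 250 bases before the gene start to 30 bases after it. CENPA had the lowest ratio of the 9 genes, NDC80 and NUF2 encode partners in 1 complex, TOP2A had the highest level and MKI67 the smallest difference. The windows are chr2:26785806-26786085 for CENPA, chr18:2571307-2571586 for NDC80 and chr1:163321704-163321983 for NUF2, all on the plus strand, and chr17:40417867-40418146 for TOP2A and chr10:128126394-128126673 for MKI67, both on the minus strand. Capitals mark matches, on either strand, to CCAAT (the word bound by NF-Y), to TTTGAA or TTCGAA (the core of the cell cycle genes homology region, CHR) and to TTTGGCG, to TTTCCCG or to TTTCGCG (E2F-type words).
CENPA: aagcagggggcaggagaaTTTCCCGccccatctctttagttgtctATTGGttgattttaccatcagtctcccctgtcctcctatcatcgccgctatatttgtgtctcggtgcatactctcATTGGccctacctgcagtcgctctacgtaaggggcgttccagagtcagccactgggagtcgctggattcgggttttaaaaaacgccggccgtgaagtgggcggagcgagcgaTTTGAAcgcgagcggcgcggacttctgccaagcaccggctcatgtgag
NDC80: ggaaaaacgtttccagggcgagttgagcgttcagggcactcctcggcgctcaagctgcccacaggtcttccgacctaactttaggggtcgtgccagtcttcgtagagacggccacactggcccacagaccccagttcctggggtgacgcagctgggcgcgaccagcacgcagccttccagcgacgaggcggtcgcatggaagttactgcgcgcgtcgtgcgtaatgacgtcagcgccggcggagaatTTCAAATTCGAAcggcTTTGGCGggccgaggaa
NUF2: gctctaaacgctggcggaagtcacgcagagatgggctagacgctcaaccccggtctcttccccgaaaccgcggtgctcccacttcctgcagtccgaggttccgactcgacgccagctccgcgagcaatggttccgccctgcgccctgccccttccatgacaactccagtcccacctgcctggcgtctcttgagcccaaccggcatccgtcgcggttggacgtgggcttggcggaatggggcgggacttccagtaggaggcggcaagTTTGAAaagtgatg
TOP2A: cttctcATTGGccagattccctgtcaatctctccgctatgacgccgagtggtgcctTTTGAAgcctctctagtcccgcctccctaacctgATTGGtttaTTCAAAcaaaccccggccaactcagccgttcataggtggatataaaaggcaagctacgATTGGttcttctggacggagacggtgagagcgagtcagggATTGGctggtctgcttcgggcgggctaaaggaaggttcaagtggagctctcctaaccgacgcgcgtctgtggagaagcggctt
MKI67: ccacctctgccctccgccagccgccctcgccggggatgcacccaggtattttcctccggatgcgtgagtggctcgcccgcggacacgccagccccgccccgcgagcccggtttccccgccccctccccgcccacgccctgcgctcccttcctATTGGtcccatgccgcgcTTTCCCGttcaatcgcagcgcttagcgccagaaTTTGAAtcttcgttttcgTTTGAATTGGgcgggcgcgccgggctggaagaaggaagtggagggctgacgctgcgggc

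CENPA held a CHR-type word from 18 to 13 bases before its start, with CCAAT matches farther upstream at -205 and -130 and an E2F-type word at -232. NDC80 held TTTGAA on the minus strand across its start and TTCGAA directly after it, from position 4 to 9, followed by an E2F-type word from 14 to 20. In NUF2 the single match was TTTGAA from 17 to 22. TOP2A held 4 CCAAT matches and 2 CHR-type words, and MKI67 held 2 of each, 1 pair of which overlap by a base at -24, and an E2F-type word at -80. In CENPF, whose window is not printed, 4 CCAAT matches ran from -94 to 17 and a CHR-type word lay from 41 to 46. SGOL2, which has 2 windows in the reference table, held a CCAAT match in both and no CHR-type or E2F-type word.

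No promoter window was matched for CENPH and CASC5, so 7 of the 9 genes (77.8%) had one. This is under the 80% needed to read a share over the genes, and that check is void; the matches are given gene by gene. Over all 27305 genes with a window of 250 bases before to 50 after the start, 39.7% held CCAAT, 19.5% a CHR-type word, 8.67% an E2F-type word and 7.85% both CCAAT and a CHR-type word in the same window. A match is a run of letters and not evidence that a factor binds there.

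**Figure D1:**
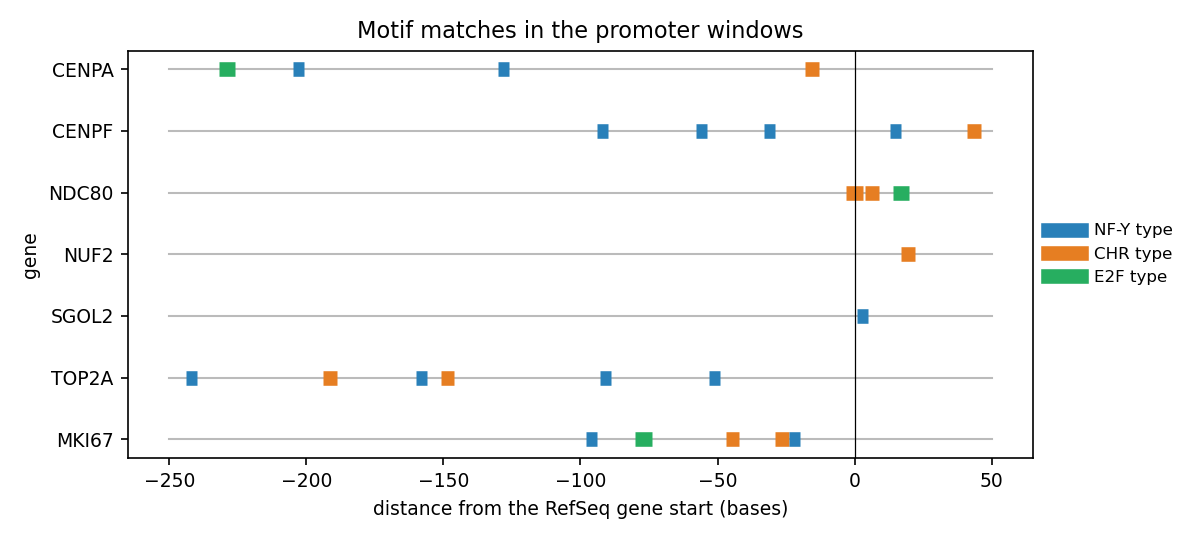
Matches to the NF-Y, CHR and E2F type words in the promoter windows of the 7 genes that have one, by distance in bases from the RefSeq gene start (vertical line); for SGOL2 the first window is drawn. CHR-type matches lie close to the start in CENPA, NDC80, NUF2 and MKI67, from 41 to 46 in CENPF, and at -194 and -151 in TOP2A.

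Levels are in FPKM, the fragments counted for each kilobase of transcript and each 1000000 mapped fragments. They are scaled to length, but comparing them between genes depends on the gene models, which were not given in the sources used here. All 9 genes were lower in the ebastine library, and their summed level was 127.8 FPKM with ebastine and 293 FPKM with vehicle, so 43.6% of the vehicle level remained. Ratios are log2((ebastine + 1)/(vehicle + 1)), with a pseudocount of 1 FPKM. The median log2 ratio of the 9 genes was -1.15, a 2.22-fold difference, while the median was -0.32 over the 1768 genes of the table that averaged at least 1 FPKM across both libraries. At least 2-fold lower were 8 of the 9 genes, beside 4.86% of those 1768 genes, and at least 1.5-fold lower were all 9, beside 18.6%. Lower by any amount were 57% of the 1768. These counts describe a choice made on the same contrast and carry no further weight.

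**Figure D2:**
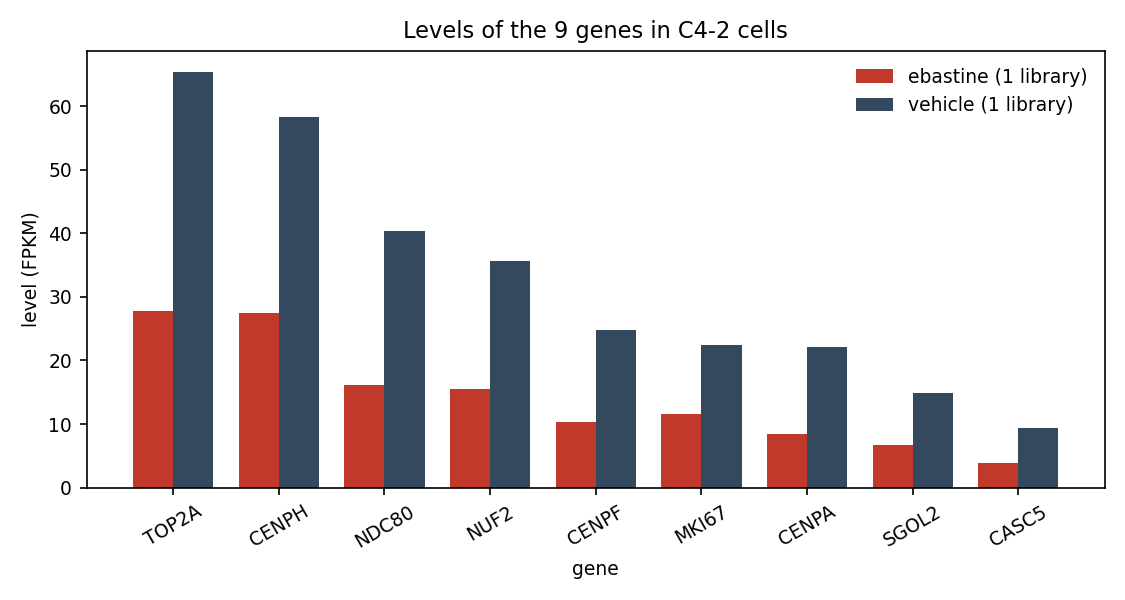
Level in FPKM of each gene in the ebastine library (left bar) and the vehicle library (right bar), with genes ordered by their vehicle level; there is 1 library in each group and no error bar. Every left bar is shorter than its right bar, from 27.8 against 65.4 FPKM in TOP2A to 3.94 against 9.35 FPKM in CASC5.

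At the centromeric chromatin itself, CENPA, the histone H3 variant that specifies the centromere, stood at 8.47 FPKM in the ebastine library and 22.2 FPKM in the vehicle library. Its log2 ratio of -1.29, a 2.45-fold difference, was the lowest of the 9 genes and the 28th lowest of the 1768. The reported locus (hg19 chromosome 2, 27008882 to 27023934) spans 15.1 kb, longer than the 8.53 kb of the reference gene, so the value may cover more than CENPA. CENPH belongs to the constitutive centromere-associated network, the inner kinetochore layer that rests on CENP-A nucleosomes. CENPH (chromosome 5, 68485375 to 68506184) stood at 27.5 FPKM with ebastine and 58.3 FPKM with vehicle, a log2 ratio of -1.06. Its level was among the highest of the 9 genes in both libraries, second to TOP2A, and its fold difference of 2.08 was among the smaller ones.

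The outer kinetochore genes NDC80, NUF2 and CASC5 encode parts of the KMN network, which holds the ends of spindle microtubules. NDC80 (chromosome 18, 2571510 to 2616634), the microtubule-binding subunit that gives its complex its name, stood at 16.1 FPKM with ebastine and 40.3 FPKM with vehicle. NUF2 (chromosome 1, 163291723 to 163325553), which pairs with NDC80 along a coiled coil, stood at 15.5 FPKM with ebastine and 35.6 FPKM with vehicle. The log2 ratios were -1.27 for NDC80 and -1.15 for NUF2. Per length, the NDC80 level was 1.04 times that of its partner NUF2 in the ebastine library and 1.13 times in the vehicle library, so the partners stood near each other in both. CASC5, now named KNL1, is the scaffold that recruits checkpoint proteins to the kinetochore. CASC5 (chromosome 15, 40886447 to 40954881) had the lowest level of the 9 genes in both libraries, at 3.94 FPKM with ebastine and 9.35 FPKM with vehicle. Its log2 ratio of -1.07 depends more on the pseudocount than those of higher genes: without one it was -1.25.

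CENPF, a large protein of the nuclear matrix that moves to the kinetochore corona in mitosis, stood at 10.3 FPKM with ebastine and 24.8 FPKM with vehicle (chromosome 1, 214776532 to 214837914). The log2 ratio was -1.20, a 2.29-fold difference. SGOL2, now named SGO2, is a shugoshin, one of the proteins that guard centromeric cohesin and bring regulators to the inner centromere. SGOL2 (chromosome 2, 201390865 to 201448818) stood at 6.67 FPKM with ebastine and 15.0 FPKM with vehicle, a log2 ratio of -1.06. Its ratio lay just past the 2-fold limit, at 2.08-fold, together with those of CENPH and CASC5.

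Of the genes that act along the chromosome arms, TOP2A encodes the DNA topoisomerase that disentangles sister chromatids and is the target of anthracyclines and etoposide. TOP2A had the highest level of the 9 genes in both libraries, at 27.8 FPKM with ebastine and 65.4 FPKM with vehicle, and a log2 ratio of -1.21. Its reported locus (chromosome 17, 38465423 to 38574202) spans 108.8 kb against 29.4 kb for the reference gene, a stretch that in the reference also holds RARA and GJD3. The median of the other 8 genes, without TOP2A, was -1.11. MKI67 encodes the Ki-67 antigen, which coats mitotic chromosomes and keeps them apart. MKI67 (chromosome 10, 129894925 to 129924468) stood at 11.6 FPKM with ebastine and 22.4 FPKM with vehicle. At a log2 ratio of -0.89, or 1.85-fold, it was the gene of the 9 with the smallest difference and the only one short of 2-fold.

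The 9 genes differed from each other more in level than in ratio. From the highest to the lowest, levels spanned 7.05-fold in the ebastine library and 6.997-fold in the vehicle library, while the log2 ratios lay within 0.40 of each other, from -1.29 to -0.89. The order of levels was almost the same in both libraries: of 36 pairs of genes, 1 pair changed order, MKI67 standing above CENPF with ebastine and below it with vehicle. In both libraries TOP2A and CENPH came first, then NDC80 and NUF2, with CENPA, SGOL2 and CASC5 last. No spread is known by which neighbours in this order could be separated. In the authors' deposited table all 9 genes had the smallest p-value it gives, 5e-05, which 385 genes share, and a q-value of 0.00178. That table's p-values come from 1 library in each group and so compare the libraries. A q-value under 0.05 together with a lower level was given to 25.4% of the 1947 genes.

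**Figure D3:**
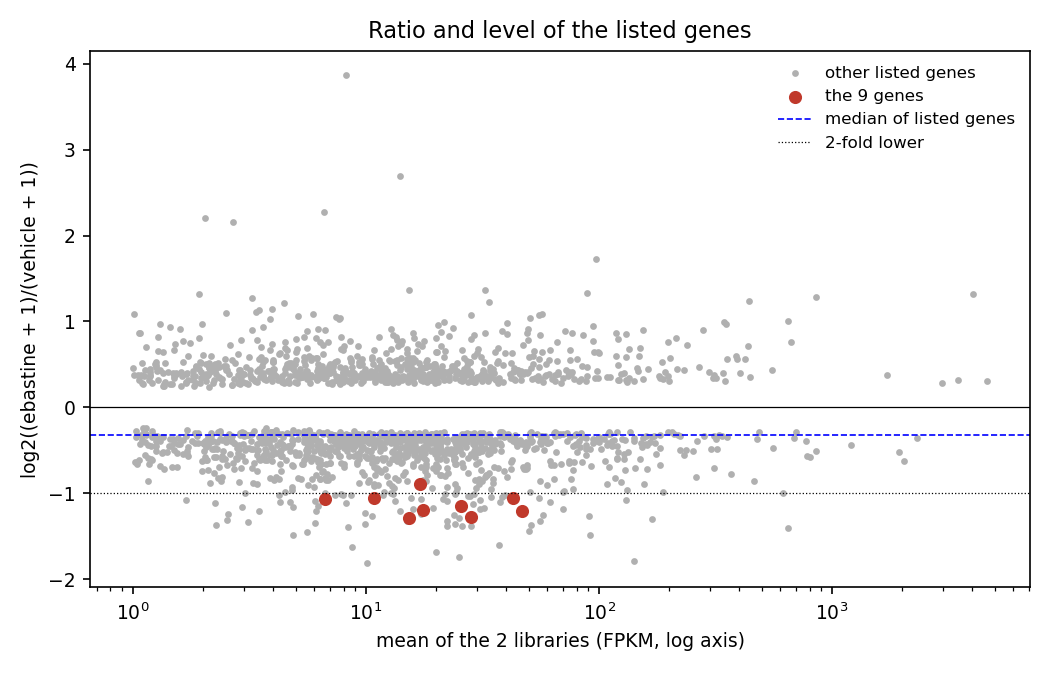
Log2 ratio of ebastine over vehicle (pseudocount 1 FPKM) against the mean of the 2 libraries in FPKM on a log axis, for the 1768 listed genes; red points are the 9 genes, the dashed line is the median of the listed genes (-0.32) and the dotted line marks 2-fold lower. The band without points around 0 reflects the table's limit on p, and the red points lie between -1.29 and -0.89.

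Genes that work in the same structures were mostly in the table too, and every one listed was lower with ebastine. Across 9 lists of centromere, kinetochore, cohesin, condensin and chromosome genes, 76 genes other than the 9 were sought and 50 were listed (65.8%), beside 14.2% of the 13714 genes the authors tested. How many of the 76 were tested is unknown. All 50 were lower, beside 57% of the 1768 genes that averaged at least 1 FPKM. Of the 50, 35 were at least 1.5-fold lower and 8 (16%) at least 2-fold lower, beside 18.6% and 4.86% of the 1768. The median log2 ratio of the 50 was -0.75. A q-value under 0.05 was given to 35 of the 50 by the authors' deposited table. Over all 1947 listed genes, 25.4% had such a q-value together with a lower level. Centring both libraries on the median ratio of listed genes that averaged at least 10 FPKM multiplies the ebastine values by 1.27. It left 46 of the 50 lower, beside 51% of the 1768 genes under the same centring. The listed genes are selected by p-value, so this median need not reflect how the libraries were scaled. Genes of the 9 lists that are outside the table have no value here and drop out of these counts. Because the lists were chosen with earlier results of these data known, the counts describe the listed genes and carry no further weight.

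Around CENPA, the loading machinery showed smaller fold differences than the histone itself, which was chosen with its lower level known. The other listed genes of this list, 4 of 5, were all lower, with a median log2 ratio of -0.75. HJURP, the chaperone that deposits CENP-A, stood at 16.4 FPKM with ebastine and 32.5 FPKM with vehicle. OIP5, a subunit of the Mis18 complex that licenses this loading, stood at 15.1 FPKM with ebastine and 29.5 FPKM with vehicle. MIS18A, of the same complex, had a log2 ratio of -0.58, beside -0.94 for HJURP and -0.92 for OIP5.

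Around CENPH, the inner network was uneven. Of the 15 other genes of this network 10 were listed and all 10 were lower, but 1 of them by at least 2-fold and 4 by at least 1.5-fold. The median of the 10 was -0.47 on the log2 scale. CENPW, a histone-fold subunit, was near CENPH, at 35.7 FPKM with ebastine and 75.01 FPKM with vehicle. CENPK, which sits in 1 subcomplex with CENPH, stood at 8.60 FPKM with ebastine and 17.2 FPKM with vehicle. MLF1IP, now named CENPU, and CENPI had log2 ratios of -0.72 and -0.67. The reported locus of MLF1IP is 84.5 kb long, so other genes may lie in it. The remaining listed subunits lay closer to the median of all listed genes: APITD1 (now CENPS) at -0.51, ITGB3BP at -0.42, CENPQ at -0.41, CENPN and CENPL at -0.37 and CENPC1, a direct reader of CENP-A, at -0.29. By the authors' deposited table none of these 6 had a q-value under 0.05, and after centring each lay between -0.18 and -0.03. The value of APITD1 may include reads of a readthrough transcript.

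Around NDC80, NUF2 and CASC5, the rest of the KMN network was uneven too. SPC25 and SPC24, the inner end of the NDC80 complex, stood at 14.1 and 28.9 FPKM with ebastine, against 29.4 and 51.6 FPKM with vehicle. ZWINT, which binds CASC5, stood at 57.6 FPKM with ebastine and 96.5 FPKM with vehicle. The MIS12 complex, which links the inner network to these proteins, had 2 of its 4 subunits in the table, both with small differences. DSN1 had a log2 ratio of -0.32 and NSL1 of -0.24, the authors' deposited table gave neither a q-value under 0.05, and after centring both were above 0, by 0.0049 and 0.029. Of the 7 other genes of the KMN list 5 were listed, 1 at least 2-fold lower and 3 at least 1.5-fold lower.

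Beside CENPF in the outer layer, 8 of 14 other genes were listed, all at least 1.5-fold lower and 3 at least 2-fold lower. KIF2C, a kinesin that takes microtubule ends apart, stood at 12.3 FPKM with ebastine and 32.3 FPKM with vehicle, a log2 ratio of -1.32. NDE1, a dynein regulator that binds CENPF, had a log2 ratio of -1.03, though its reported locus is 213.8 kb long, so other genes may lie in it. CENPE, a kinesin of the corona, had the lowest ratio of the list, -1.68, but a q-value of 0.306 in the authors' deposited table. SPDL1, which brings dynein to kinetochores, had a ratio of -0.80.

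The checkpoint and passenger proteins that act at kinetochores were lower as well. Of 6 checkpoint genes 5 were listed, with a median log2 ratio of -0.98. The kinases TTK and BUB1 had ratios of -1.10 and -1.07, BUB1B of -0.98 and MAD2L1 of -0.91, while BUB3, which also has roles outside mitosis, had a ratio of -0.39 and -0.05 after centring. The reported locus of BUB1B is 116.5 kb long, so other genes may lie in it. All 4 chromosomal passenger genes were listed, with a median of -0.89: BIRC5 at -1.11, CDCA8 at -0.94, AURKB at -0.84 and INCENP at -0.63.

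Beside SGOL2, the cohesin list had 7 of its 15 genes in the table. Of 14 other genes 6 were listed, none at least 2-fold lower, and their median log2 ratio was -0.56. RAD21, the subunit that separase cuts, had a ratio of -0.63, SGOL1, the sister gene of SGOL2, of -0.62, ESCO2, which acetylates cohesin, of -0.61 and CDCA5, which keeps cohesin on chromatin, of -0.51. SMC3 and PDS5B had ratios of -0.33 and -0.32 and were above 0 after centring, by 0.010 and 0.015. The authors' deposited table gave ESCO2, SMC3 and PDS5B no q-value under 0.05. The reported locus of ESCO2 is 63.5 kb long, so other genes may lie in it.

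Beside TOP2A and MKI67, 7 of 8 condensin genes were listed and all were lower, 6 by at least 1.5-fold, and their median was -0.83. Condensin is the ring complex that shapes mitotic chromosomes together with topoisomerase II. SMC4, a core subunit, and NCAPG2, of condensin II, had log2 ratios of -0.99 and -0.77, and NCAPG, NCAPH and NCAPD2, of condensin I, of -0.94, -0.85 and -0.83. The reported loci of SMC4 and NCAPG are 224.2 and 211.05 kb long, so other genes may lie in them. The chromokinesin KIF4A had a ratio of -0.996.

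**Figure D4:**
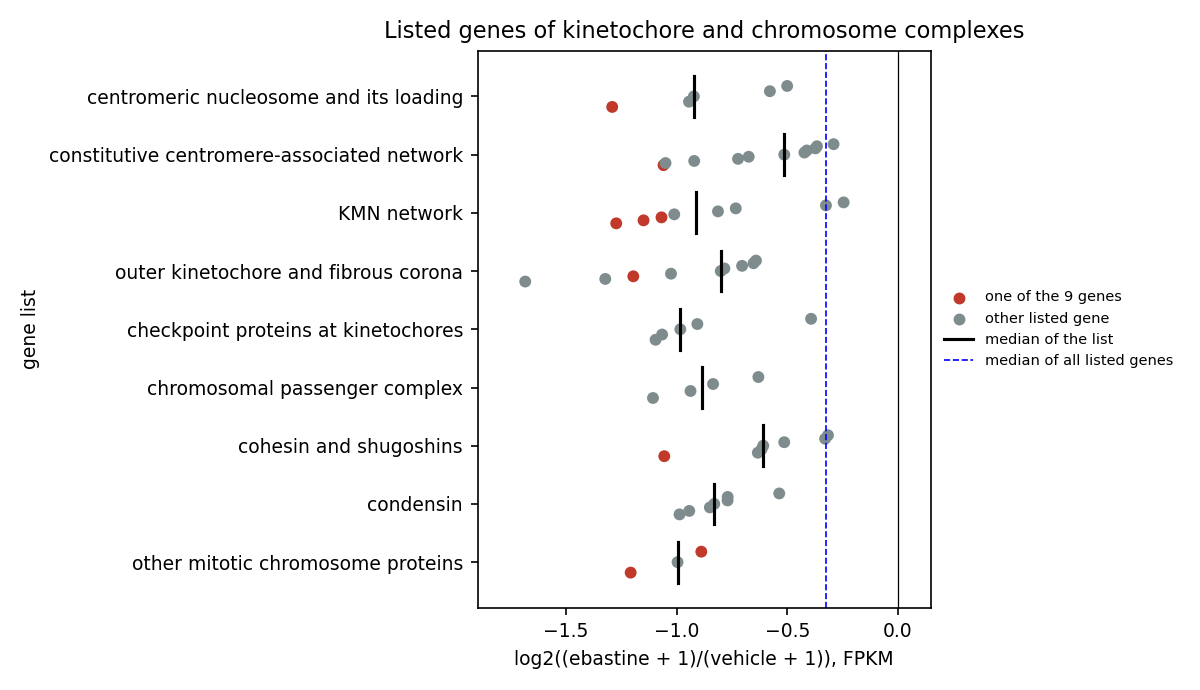
Log2 ratio of ebastine over vehicle for each listed gene of the 9 lists, with red for the 9 genes, grey for other listed genes, a black bar for the list's median and a dashed line for the median of all listed genes (-0.32). All points lie below 0, and the medians of the inner network (constitutive centromere-associated network, -0.51) and of the cohesin list (-0.61) are the closest to the dashed line.

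The size of the differences depended on how the libraries were scaled. The factors below come from listed genes only, a set selected by its p-values, so they need not equal the library scaling. Each multiplies all ebastine values alike and shows how far the counts move with it. With the ebastine values raised by the factor 1.27 all 9 genes were still lower, with a median log2 ratio of -0.82, but 0 were at least 2-fold lower and 8 were at least 1.5-fold lower. The same centring changed the split over the 1768 genes to 121 at least 2-fold higher and 24 at least 2-fold lower, against 32 and 86 as deposited. An upper quartile rescaling, by a factor of 1.15, left 4 of the 9 genes at least 2-fold lower and gave 74 higher and 45 lower genes overall. Centring also moved the medians of whole lists, those of the 9 genes included: to -0.56 for the passenger complex (-0.89 as deposited), -0.49 for condensin (-0.83), -0.29 for cohesin (-0.61) and -0.18 for the inner network (-0.51). For the KMN network the centred median was -0.58 (-0.91 as deposited), for the outer layer -0.47 (-0.80), for CENP-A and its loading -0.59 (-0.92), for the checkpoint -0.65 (-0.98) and for the other chromosome proteins -0.68 (-0.996). CENPA and NDC80 had the lowest ratios of the 9 genes under centring, -0.98 and -0.94, and MKI67 the highest, -0.57.

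**Figure D5:**
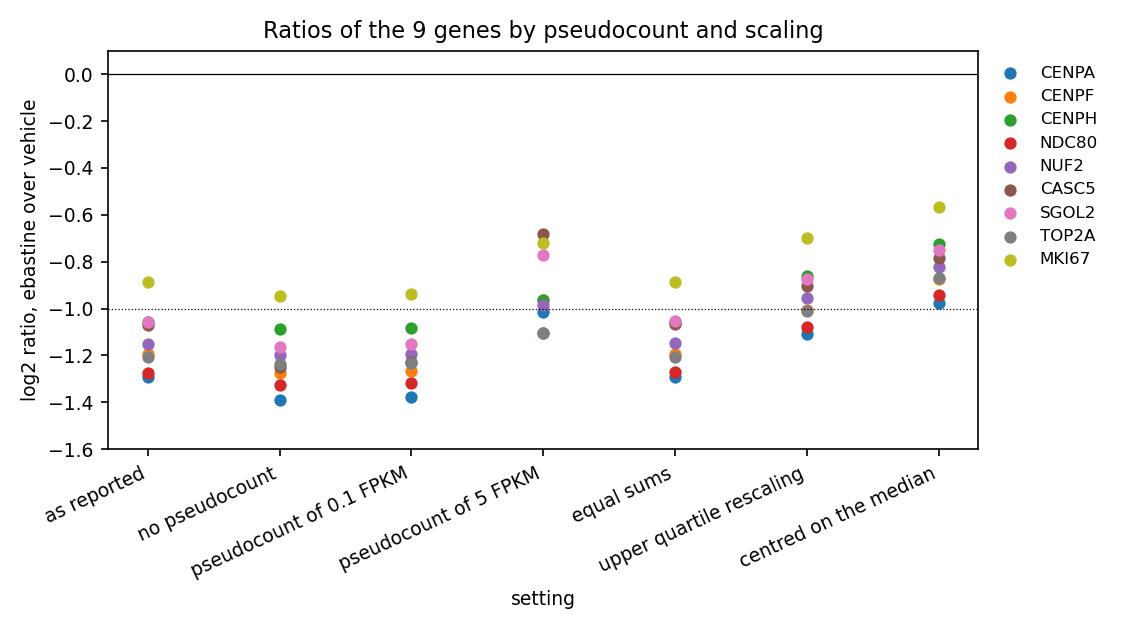
Log2 ratio of ebastine over vehicle for each of the 9 genes as reported (pseudocount 1 FPKM), with other pseudocounts and with other scalings of the libraries; the dotted line marks 2-fold lower. Every point lies below 0, and after centring on the median none reaches the dotted line.

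The prostate origin of the cells could be checked on few genes. Of 9 luminal prostate markers 4 were in the table, 3 lower and 1 higher with ebastine. KLK3, which encodes prostate-specific antigen, stood at 1599 FPKM with ebastine and 2476 FPKM with vehicle. The higher one was FOLH1, which encodes prostate-specific membrane antigen, at 840.4 FPKM with ebastine and 494.9 FPKM with vehicle. Of 12 markers of leukocytes, fibroblasts, endothelium and basal epithelium 0 were listed. Because of the table's limit on p, a marker missing from it may be expressed without a difference, or may not have been tested. Missing markers therefore do not show which cell types were absent.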

How the data were processed

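Polyadenylated RNA of 2 C4-2 cultures was measured, 1 library with ebastine and 1 with vehicle. Per the submitters' processing notes, TopHat2, Cuffdiff and the hg19 build were used. Not given in the sources used here were versions, gene models, strand setting and scaling. The deposited table has Cuffdiff's layout and holds FPKM values estimated by the authors, the authors' log2 fold change, and for each gene the deposited p-value with its q-value. Its largest p-value is 0.0499, so genes above that limit are outside it and have no value here. The authors' q-values correspond to 13714 tested genes. Sequencing depth is unknown, and no counting interval can be given.

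Log2 ratios with a pseudocount of 1 FPKM were computed with Python 3.11.15, numpy 2.4.6 and pandas 2.3.3, over genes that averaged at least 1 FPKM; a call means 2-fold or more. The pseudocount understates changes of low genes. The ratio was tested on simulated data with 3-fold changes put on the vehicle values. Those changes are larger than the differences of the 9 genes, so that check does not show how reliably theirs are called. No test between treatments was possible. Members and lists were chosen with earlier results of these data known. Older names were matched through RefSeq. Named were all 9 genes and, in each list, up to 5 listed genes with the largest absolute ratios (1 such gene is not reported here); CENPS, ITGB3BP, CENPQ, CENPN, CENPL, CENPC1, ZWINT, DSN1, NSL1, SMC3 and PDS5B were added after their values were seen. Locus starts were converted to count from 1. Reported loci were compared with reference gene lengths for the 9 genes only, so ratios of other genes may include neighbouring genes. Protein sequences were not used here. Alternatives were pseudocount, minimum mean and scaling.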

Additional observations from a re-analysis of the deposited data

How the results depend on the processing

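All 9 genes stayed lower with ebastine under every pseudocount, minimum mean and scaling tried; a pseudocount cannot turn a sign. Their median log2 ratio of -1.15 became -1.24 with no pseudocount, -1.23 with a pseudocount of 0.1 FPKM, -0.97 with one of 5 FPKM, -0.96 with upper quartile rescaling and -0.82 centred on the median. It was -1.11 without TOP2A and likewise -1.11 without CENPA, the genes with overlong loci. The 8 genes at least 2-fold lower became 3 with a pseudocount of 5 FPKM, 4 with upper quartile rescaling and 0 centred on the median. Over all listed genes the 86 at least 2-fold lower became 131 with no pseudocount, 30 with a pseudocount of 5 FPKM, 45 with upper quartile rescaling and 24 centred on the median. Limited to a q-value under 0.05, 5 of 11 listed genes of the inner network, 4 of 7 of the cohesin list, 6 of 9 of the outer layer, 6 of 8 of the KMN network and 4 of 5 of the checkpoint were left, all lower, because fewer genes were considered. The inner network's median was then -0.92, against -0.51, and the share of listed genes at least 2-fold lower 10.4%, against 4.86%. That limit and the omissions of TOP2A and CENPA were chosen after seeing the data. No paired analysis was possible because each group has 1 library. Without replicates or known depth, no difference can be set against an error.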

Other observations

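Promoters of the related genes were searched for the same words. Of the 50 listed genes of the 9 lists other than the 9 genes themselves, 41 (82%) had a promoter window in the RefSeq table. CCAAT was in 25 of the 41 (61%), beside 39.7% of all 27305 genes with a window. A CHR-type word was in 26 (63.4%), beside 19.5% of all genes, and an E2F-type word in 7 (17.1%), beside 8.67%. Both CCAAT and a CHR-type word were in 17 of the 41 (41.5%), beside 7.85% of all genes. The 27305 genes were not limited to genes listed or expressed in these cells, and the planned share among listed genes was not computed. The shares therefore do not separate these lists from expressed genes in general. The lists were chosen by function with their lower levels known, and no test was made of these shares.

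SPC24 and SPC25, which pair at the inner end of the NDC80 complex, differed in level more than NDC80 and NUF2 did. The SPC24 level per length was 2.05 times that of SPC25 in the ebastine library and 1.76 times in the vehicle library.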
